A study of Mus musculus with 6 samples.

Results

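The genes of the respiratory chain and the ATP synthase were followed through 3 populations of sorted mouse lung epithelial cells. They were taken by symbol from the protein-coding genes of the table: names starting with Nduf, Uqcr, Cox4 to Cox8, Atp5 or mt-, together with Sdha, Sdhb, Sdhc, Sdhd, Cycs and Cyc1. The rule found 99 genes among 22239, of which 91 are encoded in the nucleus and 8 in mitochondrial DNA. By complex these are 42 genes of complex I (36 nuclear, 6 mitochondrial), 9 complex I assembly factors, 4 of complex II, 10 of complex III, 17 of complex IV, cytochrome c and 16 of the ATP synthase group, which includes the associated factor Atp5s. Ndufa4, named for complex I but now counted as a complex IV subunit, was placed in complex IV, and so was the supercomplex factor Cox7a2l. Atp5sl, taken by its Atp5 name, was placed among the complex I assembly factors.

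RNA was sequenced in bulk from 2 samples each of bronchioalveolar stem cells (BASC), alveolar type 2 (AT2) cells and Club cells of mice aged 8 weeks, to compare the 3 epithelial populations. All carried endogenous reporters and were sorted from lung homogenates depleted of CD31 and CD45. BASC were sorted as CCSP-mCherry+/SPC-YFP+, AT2 cells by SPC-YFP, the surfactant protein C reporter, and Club cells by CCSP-mCherry, the reporter of the club cell secretory protein. Nothing in the labels ties the 2 samples of a population to different animals. The p-values below therefore describe sample-to-sample spread alone, which may be technical.

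Oxidative phosphorylation turns the energy of nutrients into ATP on the inner mitochondrial membrane. Complexes I and II pass electrons to a quinone, complex III hands them through cytochrome c to complex IV, and complex IV reduces oxygen to water. Complexes I, III and IV pump protons, and the ATP synthase uses the returning protons to make ATP. Complex II is encoded wholly in the nucleus, while the others mix nuclear subunits with a few core subunits read from mitochondrial DNA as long joint transcripts. In the lung, AT2 cells make surfactant and Club cells carry out secretion and detoxification, and both are known to be metabolically active.

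Values are normalised read counts per gene, taken here to be counts scaled by 1 factor per sample, since the method is not named. From the spacing of low values the reads behind the table were estimated at 10122640 and 14720992 in BASC, 18205636 and 13174814 in AT2 cells, and 15443465 and 12724381 in Club cells. A listed 0 allows up to 3 reads, or 2.29 to 4.02 normalised counts depending on the library, for counting error alone. Summed markers followed the sort. The 8 AT2 markers summed to 963031 and 972864 in BASC, 1043927 and 1134918 in AT2 cells, and 77885 and 96233 in Club cells. The 8 Club markers summed to 58573 and 77065 in BASC, 646 and 549 in AT2 cells, and 1050578 and 1044773 in Club cells. The 5 type 1 markers summed to between 11313 and 13713 in BASC and AT2 and to 4458 and 4576 in Club cells. Ager and Aqp5 led that sum, while Hopx and Pdpn went the other way. Hopx had 88 and 217 in BASC, 158 and 45 in AT2 cells, and 316 and 489 in Club cells. Pdpn had 0 and 0 in BASC, 6 and 17 in AT2 cells, and 561 and 457 in Club cells. The 4 measured endothelial markers stayed at or under 98 in sum in all 6 libraries. The blood list rested on Lyz2, which AT2 cells also express (254508 and 262419 in BASC, 178232 and 179734 in AT2, 2179 and 990 in Club cells); Cd68 lay between 114 and 280.

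Per kilobase of exon, the mitochondrially encoded genes stood far above the nuclear ones. The 6 of complex I had a median over genes of 21786 normalised counts per kilobase as means of the 6 libraries, against 196 for the 36 nuclear genes of complex I. The highest was mt-Cytb, the cytochrome b of complex III, at 39263 per kilobase, and mt-Co1, the catalytic core of complex IV, reached 24624. The highest nuclear gene was Atp5a1, the alpha subunit of the ATP synthase, at 1482 per kilobase, followed by Cox8a, a small subunit of complex IV, at 1319. Nuclear medians were 235 in complex II, 396 in complex III, 252 in complex IV, 181 in the ATP synthase group and 43.8 among the complex I assembly factors. Exon length here is the union of all annotated exons of a gene, which can far exceed its longest coding transcript. It was 3130 bases against 809 for Atp5j and 1756 against 421 for Atp5e. The order of the medians may depend on this length, and that was not tested. Cycs, cytochrome c itself, lay at 40.1 per kilobase, with 30.3% of its transcript matched by annotated transcripts of other genes.

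**Figure D1:**
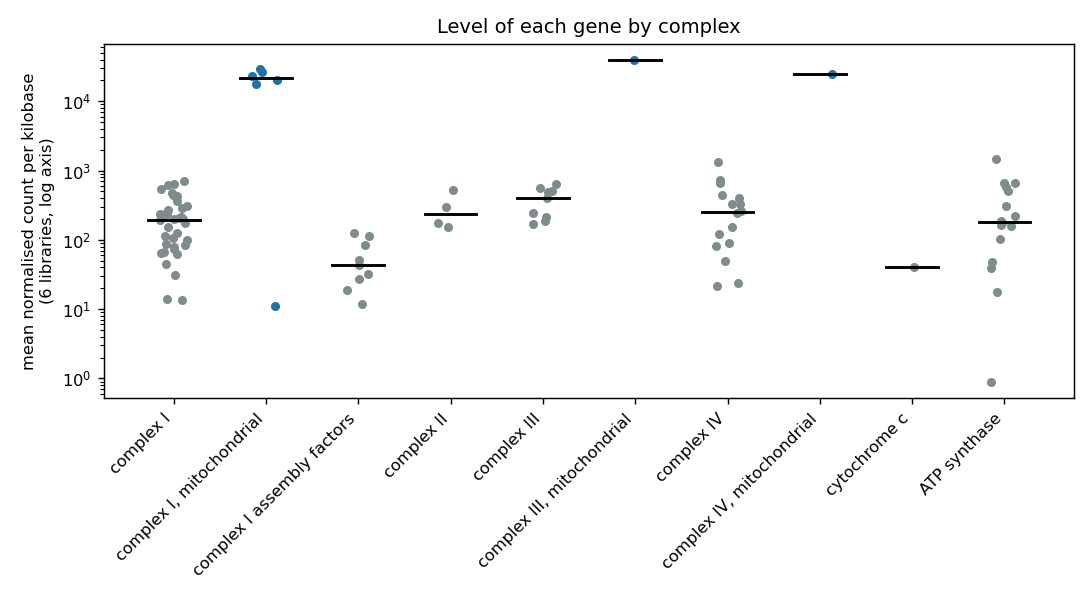
Mean normalised read count per kilobase of exon over the 6 libraries (log axis) for each of the 99 genes, by complex, with nuclear genes in grey, mitochondrially encoded genes in blue and the class median as a bar. All mitochondrial genes but mt-Nd3 lie at 17675 per kilobase (mt-Nd4) or higher, while the highest nuclear gene lies at 1482.

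One mitochondrial gene was nearly absent. mt-Nd3, a core subunit of complex I (chromosome M, 9459 to 9806, plus strand, GRCm38), had 0 and 3 normalised counts in BASC, 0 and 5 in AT2 cells, and 10 and 5 in Club cells, whereas its neighbour mt-Nd4 had 19808 or more in every library. It failed the filter on low values and was not tested. Of its transcript, 99.1% is matched at 98% identity or more by Gm28438, a nuclear copy of mitochondrial DNA on chromosome 1. The matched stretches differ over 345 bases by 1 substitution, T3C, counted from 1 at the 5′ end of mt-Nd3. The first 60 bases of each are shown because they hold that base, in capitals; mt-Nd3 spans chrM:9459-9518 on the plus strand and Gm28438 chr1:24613060-24613119 on the minus strand, both GRCm38.
mt-Nd3: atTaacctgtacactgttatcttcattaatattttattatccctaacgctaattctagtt
Gm28438: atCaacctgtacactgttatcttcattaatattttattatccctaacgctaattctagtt
Reads from such stretches cannot be placed by sequence alone, and the part of this in the low values was not tested. Only annotated transcripts of other genes were searched for copies, not the whole genome. That search found none for mt-Nd1, mt-Nd2, mt-Nd5, mt-Nd6 and mt-Cytb, while copies matched 31.3% of mt-Co1 and 63.6% of mt-Nd4. mt-Nd4l, mt-Co2, mt-Co3, mt-Atp6 and mt-Atp8 are not analysed here, so the mitochondrial side of the ATP synthase is not covered. In all, 25 of the 99 genes had a matching stretch and 18 were matched over more than 25% of the transcript, among them Atp5h (80.1%), Ndufs3 (75.7%), Uqcrb (62.8%) and Atp5l (57.4%). Values of these 18 are uncertain to the extent that reads were shared. The same search found none for the 7 called nuclear genes described below.

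Summed over the 91 nuclear genes, Club cells had the highest level. The sums were 38536 and 37487 normalised counts in BASC, 37797 and 41032 in AT2 cells, and 44172 and 45143 in Club cells. Both Club libraries thus lay above all 4 others, and BASC and AT2 overlapped. As a share of all nuclear protein-coding counts these were 0.384% and 0.378% in BASC, 0.366% and 0.399% in AT2 cells, and 0.467% and 0.476% in Club cells. In bulk samples, fewer cells of a type and less RNA per cell cannot be told apart. The 8 mitochondrial genes summed to 208866 and 205239 in BASC, 240258 and 191981 in AT2 cells, and 237395 and 240236 in Club cells, so the AT2 libraries spanned the range of the other populations.

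The balance between the mitochondrial and the nuclear side did not set AT2 cells apart, and it differed little between BASC and Club cells. The ratio of the mitochondrial to the nuclear sum was 5.42 and 5.48 in BASC, 6.36 and 4.68 in AT2 cells, and 5.37 and 5.32 in Club cells. Both BASC ratios lay above both Club ratios, by a mean log2 difference of 0.026. The AT2 replicates lay on either side of all other libraries, and AT2 replicate 1 exceeded AT2 replicate 2 in all 7 mitochondrial genes tested. Their median absolute log2 difference between replicates was 0.31 in AT2, against 0.05 in BASC and 0.04 in Club cells. For nuclear genes the same measure was 0.45 in BASC, 0.44 in AT2 cells, and 0.26 in Club cells. With 2 samples against 2, no permutation test can pass 0.05, so these sums and ratios carry no test.

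BASC and AT2 cells were compared to ask which genes differ between cells with both reporters and those with SPC-YFP. None of the 98 genes tested was called between them, where a call is a limma adjusted p under 0.05 over all 17721 genes tested. The background was low as well, with 0.632% of all genes called, 0.553% higher and 0.079% lower in BASC. At an unadjusted p under 0.05, 2 of the 98 genes were higher and 4 lower in BASC, beside 7.09% and 6.09% of all genes. The 2 higher were Ndufa1 and Ndufaf7, and the 4 lower were Ndufb11, Ndufs6, Cox4i1 and Cox5a. The smallest p was that of Cox5a, a nuclear subunit of complex IV, with 74 and 94 normalised counts in BASC and 183 and 233 in AT2. The BASC values lay below both AT2 values, and the log2 fold change was -1.30 ± 0.38 (SE, limma adjusted p = 0.205). The median log2 fold change, BASC over AT2, was -0.05 over nuclear genes and -0.03 over mitochondrial ones, beside 0.00 over all genes tested. Over all 98 genes it was -0.04, and 0.01 with equal column totals, so that its sign depends on the scaling. Samples did not overlap for 9 genes that were higher and 16 that were lower in BASC, out of 98, where the background was 18.3% and 18.9%.

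By complex, the genes of complex IV lay lower in BASC than in AT2 in 13 of 17 cases (76.5%), beside 49.6% of all genes tested. Their median log2 fold change was -0.28, and none of them was called. Samples did not overlap for 4 of the 17 that were lower and 0 that were higher, near the 18.9% of all genes for lower. The nuclear complex IV sums were 5047 and 4621 in BASC, 5830 and 5841 in AT2 cells, and 6204 and 6143 in Club cells, so both BASC libraries lay under the other 4. Medians against AT2 were -0.04 for the 36 nuclear genes of complex I, -0.20 for complex II, -0.07 for complex III and 0.06 for the ATP synthase group. These complex medians are descriptions, since the list was chosen with results of these data known.

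Against Club cells, most genes of the module lay lower in BASC, and few were called. Of 98 tested, 1 rose (Cox6a2) and 4 fell (Uqcr10, Ndufaf7, Cox4i1 and mt-Nd5) in BASC, while over all genes 5.77% were called higher and 5.42% lower. The fitted value was negative for 78 of the 98 genes (79.6%), beside 54.4% of all genes tested. The median was -0.28 over nuclear and -0.26 over mitochondrial genes, beside -0.10 over all genes. Samples did not overlap for 5 genes that were higher and 44 that were lower in BASC, where 23.9% and 30.1% of all genes did so. All 4 genes of complex II lay lower, 30 of 36 nuclear genes of complex I and 13 of 16 of the ATP synthase group, with medians of -0.34, -0.25 and -0.26. The count of 5 calls was 1 without BASC replicate 1, without Club replicate 1 or without Club replicate 2, and 2 without BASC replicate 2.

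AT2 cells were set against the same Club libraries, so both comparisons share them. Cox6a2 and mt-Co1 rose and Ndufaf7, Ndufa1, Uqcr10, Uqcrfs1, mt-Nd4, mt-Nd5 and Ndufa3 fell in AT2, so 2 of 98 were called higher and 7 lower, where the background was 8.42% and 9.71%. Fitted values were negative for 67 of 98 genes, beside 54.2% of all genes. Medians were -0.28 over nuclear genes and -0.30 over mitochondrial ones, beside -0.10 over all genes. By complex, nuclear medians were -0.32 in complex I, -0.61 among its assembly factors, -0.19 in complex II, -0.37 in complex III, -0.04 in complex IV and -0.23 in the ATP synthase group; differences between complexes were not tested. Samples did not overlap for 9 genes that were higher and 39 that were lower in AT2, beside 26.0% and 32.0% of all genes. The count of 9 calls was 3 without Club replicate 1 or without Club replicate 2, and 6 without either BASC replicate or AT2 replicate 2. With equal column totals, or equal totals over nuclear protein-coding genes, 1 was higher and 8 were lower.

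**Figure D2:**
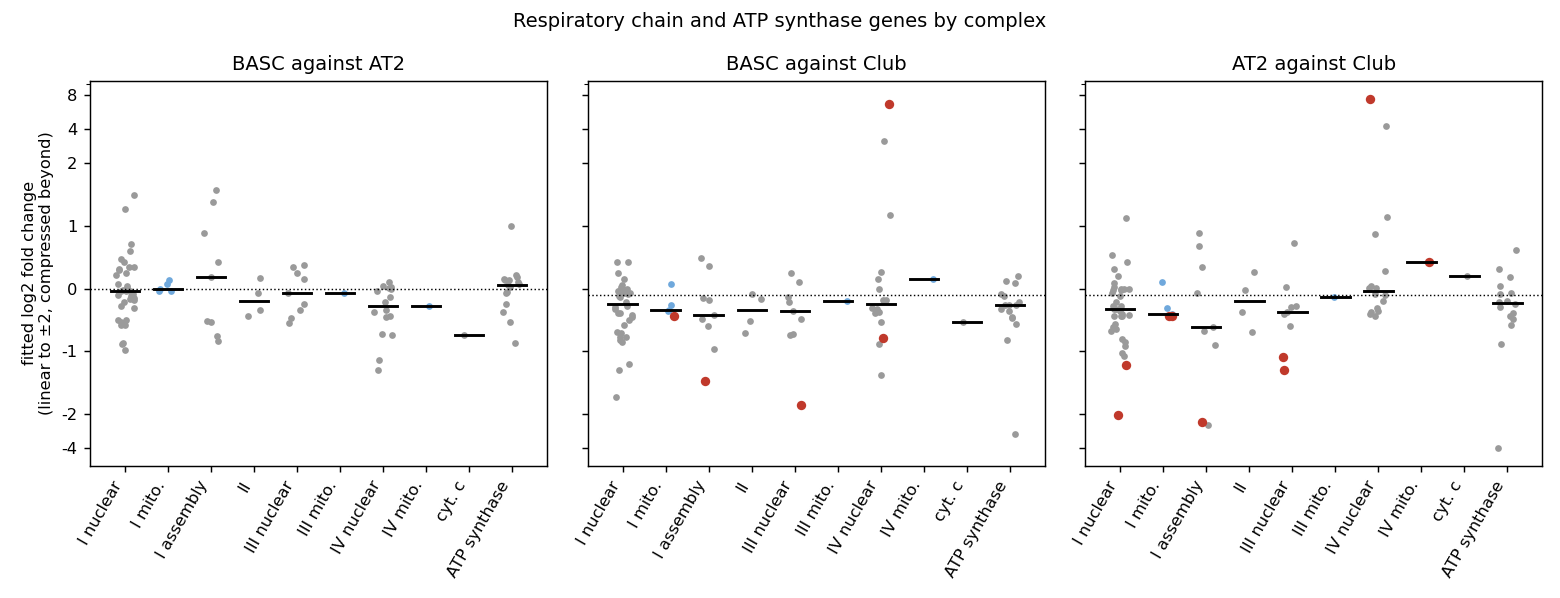
Fitted log2 fold change of each of the 98 tested genes (vertical axis, linear to 2 in either direction and compressed beyond) by complex, for BASC against AT2, BASC against Club and AT2 against Club. Red points are called genes, blue points mitochondrial genes that were not called, grey points nuclear genes that were not called, bars class medians and the dotted line the median of all genes tested. No point is red in BASC against AT2, 5 are in BASC against Club and 9 in AT2 against Club.

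Markers of ciliated cells moved with these Club comparisons. All 9 listed were measured, and they summed to 2995 and 3115 in BASC, 2542 and 2864 in AT2 cells, and 8307 and 8467 in Club cells. Tubb4b was most of the BASC and AT2 sums, with 1973 and 2216 in BASC, 1696 and 1992 in AT2 cells, and 2734 and 2753 in Club cells. Foxj1 differed more, with 115 and 100 in BASC, 96 and 40 in AT2 cells, and 795 and 825 in Club cells. Dynlrb2 differed little, with 80 and 101 in BASC, 93 and 97 in AT2 cells, and 134 and 158 in Club cells. Rsph1, Ccdc113 and Tekt1 were at 0 in both AT2 libraries. Their part in the levels of the module was not tested.

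The strongest difference was that of Cox6a2 (ENSMUSG00000030785, chromosome 7, 128205435 to 128206387, minus strand, GRCm38), known as the heart and skeletal muscle isoform of subunit 6A of complex IV. It had 311 and 189 normalised counts in BASC, 486 and 338 in AT2 cells, and 4 and 0 in Club cells. Every BASC and AT2 library was high and both Club libraries were at or near the floor. The log2 fold change against Club cells was 6.77 ± 0.88 in BASC (SE, limma adjusted p = 0.00359) and 7.51 ± 0.88 in AT2 (limma adjusted p = 0.00140). These folds rest on about 5 reads in 1 Club library and depend on the pseudocount: with 10 in place of 1 they were 4.42 and 5.13. Without BASC replicate 1 the call in BASC was lost (limma adjusted p = 0.0522). BASC and AT2 were not called apart (log2 fold change -0.74 ± 0.88, limma adjusted p = 0.775).

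Its partner Cox6a1, the isoform found in most tissues, had 477 and 470 in BASC, 547 and 357 in AT2 cells, and 487 and 466 in Club cells, and no comparison called it. Cox6a2 thus made up 39.5% and 28.7% of the reads of the pair in BASC, 47.1% and 48.6% in AT2 cells, and 0.815% and 0% in Club cells. The exact binomial 95% intervals ran from 25.4% at the lowest in BASC to 52.5% at the highest in AT2, and to at most 1.95% in Club cells. They rest on estimated reads and cover counting error only. Cardiac muscle markers were looked at because the pulmonary veins of mice hold cardiac muscle. Of 8 listed, 6 were measured, and they summed to 1195 and 1100 in BASC, 1286 and 1009 in AT2 cells, and 836 and 926 in Club cells. Actc1, Myl4 and Nppa were at or under 14 in every library, and the other 3 did not move together. Myh6 had 987 and 973 in BASC, 725 and 570 in AT2 cells, and 400 and 605 in Club cells, and it rose in BASC against Club cells (limma adjusted p = 0.0452). Ryr2 had 185 and 75 in BASC, 549 and 393 in AT2 cells, and 338 and 278 in Club cells. Tnni3 had 3 and 52 in BASC, 5 and 4 in AT2 cells, and 96 and 43 in Club cells. Their part in the Cox6a2 values was not tested. Itgad, on the opposite strand, overlaps Cox6a2 by 70 bases and had between 0 and 16 in the 6 libraries.

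The other isoform pairs of complex IV were less clear. Cox4i2, an isoform of subunit 4 known from lung and from low oxygen, had 60 and 16 in BASC, 54 and 90 in AT2 cells, and 0 and 12 in Club cells. The BASC and AT2 values lay above both Club values, yet neither difference was called (log2 fold change 3.16 ± 1.43 in BASC, limma adjusted p = 0.231; 4.29 ± 1.43 in AT2, limma adjusted p = 0.0833). In 4 alternatives the AT2 difference passed, with the lowest adjusted p, 0.0356, without Club replicate 2. Pericytes are also known to express Cox4i2. Of 9 pericyte and smooth muscle markers, 6 were measured, and they summed to 111 and 28 in BASC, 127 and 121 in AT2 cells, and 22 and 42 in Club cells. Cspg4, a pericyte proteoglycan and most of the sum in BASC replicate 1 and both AT2 libraries, had 91 and 1 in BASC, 116 and 79 in AT2 cells, and 6 and 22 in Club cells. Like Cox4i2 it was lower in BASC replicate 2 than in BASC replicate 1 and higher in both AT2 libraries than in both Club libraries. Cspg4 was singled out after its values were seen, and other markers of the list did not share the order of AT2 and Club. Higd1b had 0 and 37 in AT2 cells and 0 and 8 in Club cells. Acta2 had 0 and 1 in AT2 cells and 5 and 10 in Club cells. Higd1b lay between 0 and 37 over all libraries, and Cnn1, Des, Acta2 and Myh11 were at or under 23 in each. The part of such cells was not tested.

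Cox4i1, the usual isoform of subunit 4 (ENSMUSG00000031818, chromosome 8, 120668222 to 120674207, plus strand), ran the other way. It had 859 and 782 in BASC, 1024 and 1201 in AT2 cells, and 1477 and 1361 in Club cells. The 3 populations did not overlap, in the order BASC, AT2, Club. It fell in BASC against Club cells (log2 fold change -0.79 ± 0.16, limma adjusted p = 0.0227), and was not called in AT2 against Club cells (limma adjusted p = 0.190) or in BASC against AT2 (limma adjusted p = 0.310). The call was lost when any single BASC or Club library was left out, and without a trend in the fit. Cox4i2 made up 6.53% and 2.01% of the pair in BASC, 5.01% and 6.97% in AT2 cells, and 0% and 0.874% in Club cells, so its share overlapped between BASC and AT2 and not with Club cells.

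**Figure D3:**
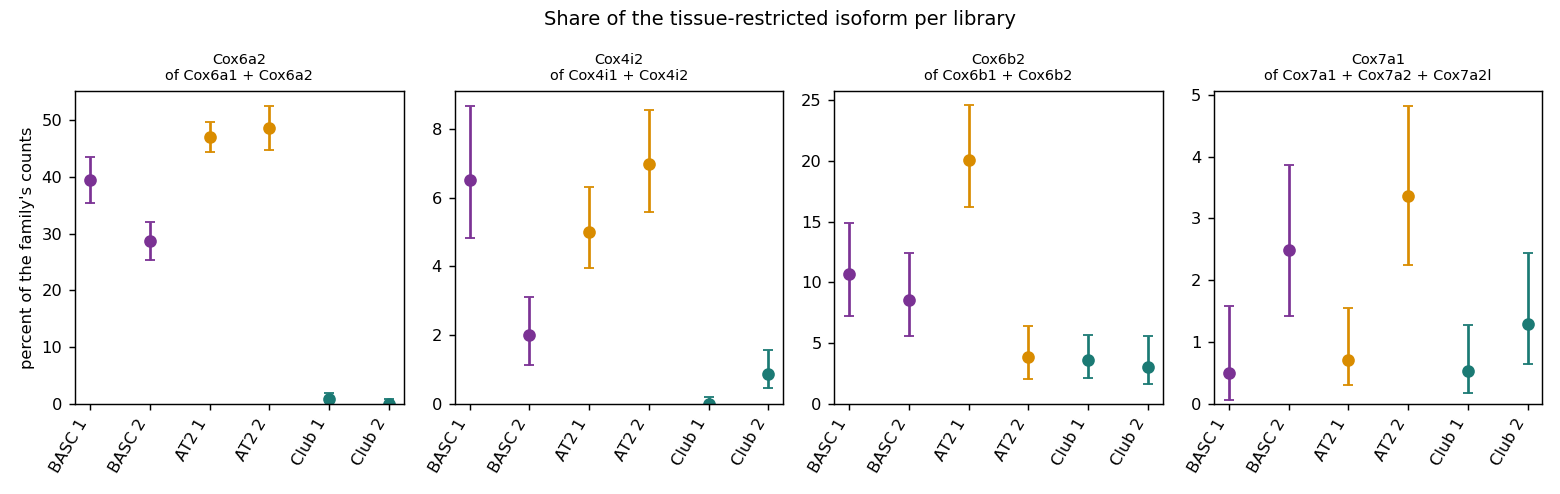
Share of the isoform of restricted expression in the estimated reads of its family, in percent, per library, with exact binomial 95% intervals, for Cox6a2, Cox4i2, Cox6b2 and Cox7a1. The Cox6a2 share lies between 28.7% and 48.6% in BASC and AT2 and under 1% in Club cells, whereas the Cox6b2 and Cox7a1 shares differ as much between replicates as between populations.

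Neither Cox6b2, known from testis, nor Cox7a1, known from heart and muscle, was called. Cox6b2 had 39 and 22 in BASC, 57 and 14 in AT2 cells, and 14 and 11 in Club cells, while its partner Cox6b1 had 327 and 235 in BASC, 227 and 353 in AT2 cells, and 379 and 351 in Club cells. Cox7a1 had 3 and 16 in BASC, 5 and 30 in AT2 cells, and 4 and 10 in Club cells. The widely expressed Cox7a2 lay between 173 and 283 and Cox7a2l, which helps complexes III and IV join, between 382 and 659 across the 6 libraries. Cox7b ranged between 279 and 706, Cox8a between 666 and 938 and Ndufa4 between 114 and 291, and none of them was called. Cox7b2, Cox8b, Cox8c and Ndufa4l2 are not analysed here. Cycs had 95 and 92 in BASC, 92 and 265 in AT2 cells, and 120 and 154 in Club cells, with AT2 replicate 2 above the other 5 libraries.

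Complex I was called through few subunits. Ndufa1, a small accessory subunit of the membrane arm encoded on the X chromosome (ENSMUSG00000016427, 37187588 to 37191163, minus strand), had 167 and 171 in BASC, 69 and 70 in AT2 cells, and 231 and 360 in Club cells. The populations did not overlap, with AT2 lowest and BASC between. AT2 fell against Club cells (log2 fold change -2.04 ± 0.39, a ratio of means of 0.235, limma adjusted p = 0.0118), a call lost without Club replicate 2 (limma adjusted p = 0.152). BASC was not called against Club cells (-0.77 ± 0.39, limma adjusted p = 0.286) or against AT2 (1.27 ± 0.39, limma adjusted p = 0.220). Ndufa3, another accessory subunit of the membrane arm (ENSMUSG00000035674, chromosome 7, 3617373 to 3620327, plus strand), showed the same order with 171 and 224 in BASC, 136 and 103 in AT2 cells, and 280 and 274 in Club cells. Its fall in AT2 against Club cells (-1.22 ± 0.34, limma adjusted p = 0.0495) was at the threshold and was kept under 3 of 16 alternatives. Tfpt, on the opposite strand, overlaps Ndufa3 by 4 bases.

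The nuclear core subunits of complex I, among them the carriers of its flavin and iron-sulphur clusters, differed little. The 7 of them had medians of -0.03 for BASC over AT2, -0.07 for BASC over Club cells and -0.07 for AT2 over Club cells, and none was called. The 29 accessory subunits had medians of -0.04, -0.30 and -0.36 in the same 3 comparisons. Whether core and accessory subunits differ was not tested.

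Among the 9 assembly factors, Ndufaf7 stood out (ENSMUSG00000024082, chromosome 17, 78937135 to 78948052, plus strand). It encodes a methyltransferase that acts while complex I is built. It had 289 and 254 in BASC, 133 and 159 in AT2 cells, and 850 and 673 in Club cells, so that Club cells were highest, AT2 lowest and BASC between without overlap. It fell in AT2 against Club cells (log2 fold change -2.37 ± 0.27, limma adjusted p = 0.00115, ratio of means 0.192) and in BASC against Club cells (-1.48 ± 0.27, limma adjusted p = 0.0144, ratio of means 0.357). The AT2 call was kept under all 16 alternatives. The BASC call was lost when any single BASC or Club library was left out, and without a trend in the fit. BASC was not called against AT2 (log2 fold change 0.89 ± 0.27, limma adjusted p = 0.212). The other 8 assembly factors were not called; Ndufaf3, next in level, had 104 and 127 in BASC, 183 and 230 in AT2 cells, and 149 and 109 in Club cells.

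Complex II, which also belongs to the citric acid cycle, had no called gene. Sdha, its flavoprotein, had 2193 and 2039 in BASC, 2196 and 2240 in AT2 cells, and 2146 and 2344 in Club cells, and its log2 differences between populations lay within 0.1. Against Club cells it was -0.08 ± 0.12 in BASC (SE, limma adjusted p = 0.742) and -0.02 ± 0.12 in AT2 cells (limma adjusted p = 0.955).

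Complex III gave 2 called nuclear genes. Uqcr10, a small subunit without a redox centre (ENSMUSG00000059534, chromosome 11, 4701973 to 4704342, minus strand), had 134 and 153 in BASC, 194 and 227 in AT2 cells, and 540 and 498 in Club cells. The populations did not overlap, and BASC was lowest. It fell in BASC against Club cells (log2 fold change -1.85 ± 0.28, ratio of means 0.276, limma adjusted p = 0.00663) and in AT2 against Club cells (-1.30 ± 0.28, ratio of means 0.406, limma adjusted p = 0.0184). Both calls were lost without either Club library, and that of AT2 also without AT2 replicate 1. Uqcrfs1, the Rieske iron-sulphur protein (ENSMUSG00000038462, chromosome 13, 30540308 to 30545362, minus strand), had 565 and 382 in BASC, 395 and 337 in AT2 cells, and 720 and 838 in Club cells. BASC and AT2 overlapped, both below Club cells. It fell in AT2 against Club cells (-1.09 ± 0.25, limma adjusted p = 0.0255). That call was lost when any single AT2 or Club library was left out, and without a trend in the fit. Uqcrfs1 was not called in BASC against Club cells (-0.74 ± 0.25, limma adjusted p = 0.120). Uqcrc1, the core protein with the highest value in complex III among nuclear genes, had 584 and 799 in BASC, 646 and 1023 in AT2 cells, and 845 and 749 in Club cells.

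**Figure D4:**
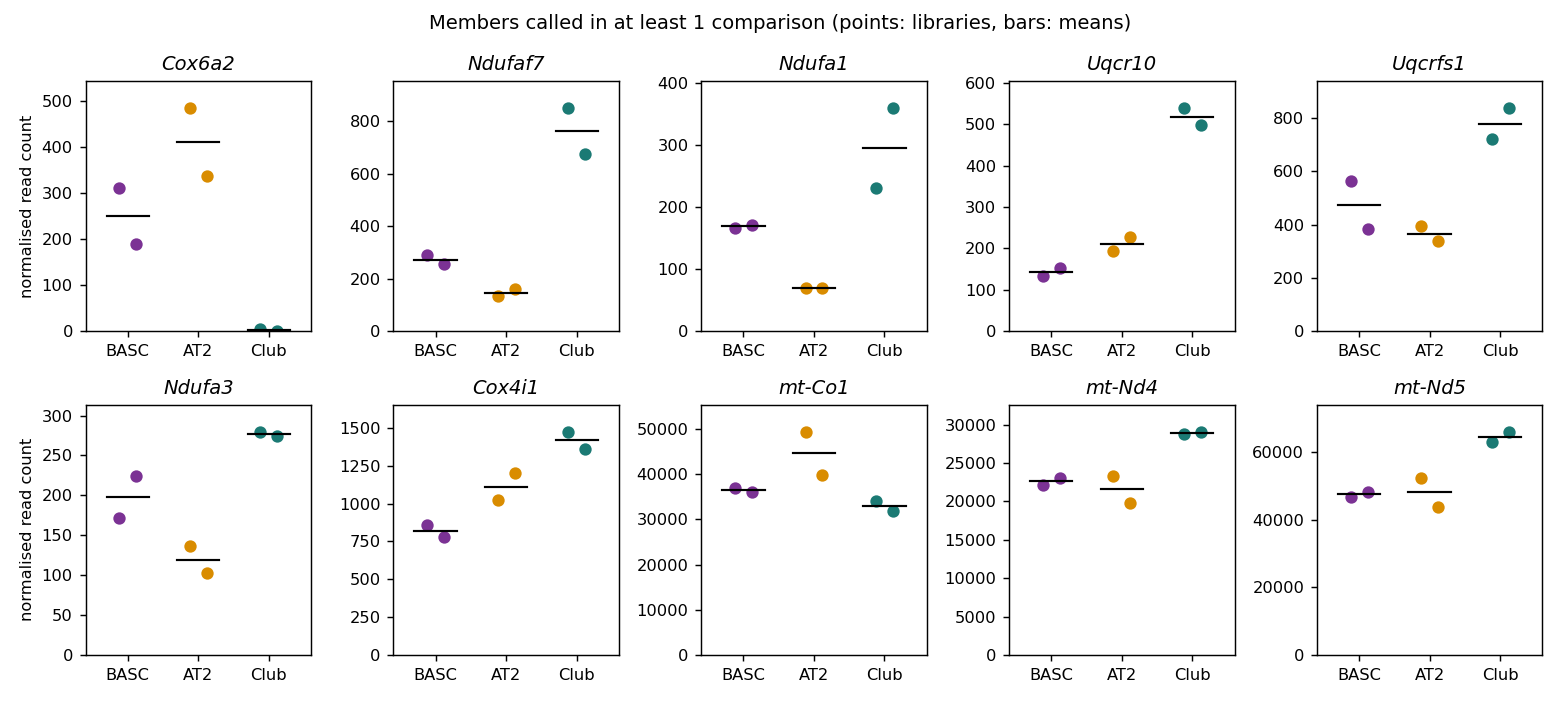
Normalised read counts per library (points) and population means (bars) of the 10 genes called in at least 1 comparison, with BASC, AT2 and Club from left to right and each vertical axis starting at 0. Cox6a2 lies between 189 and 486 in BASC and AT2 and at 4 and 0 in Club cells, while Ndufaf7, Uqcr10, Cox4i1 and Ndufa1 lie highest in Club cells.

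The ATP synthase group had no called gene in any comparison. Atp5a1, its highest member, had 4860 and 5017 in BASC, 4473 and 4237 in AT2 cells, and 4518 and 4764 in Club cells. Its BASC values lay above the other 4, yet the log2 fold change was 0.18 ± 0.10 against AT2 (limma adjusted p = 0.524) and 0.09 ± 0.10 against Club cells (limma adjusted p = 0.667). The 3 genes for the same subunit c of the membrane ring, Atp5g1, Atp5g2 and Atp5g3, were led by Atp5g3 in every library, with 68.1% and 81.1% of their reads in BASC, 70.4% and 68.2% in AT2 cells, and 77.4% and 73.8% in Club cells. Atp5g3 had 323 and 648 in BASC, 380 and 403 in AT2 cells, and 640 and 473 in Club cells, while Atp5g1 lay between 46 and 121 and Atp5g2 between 39 and 131 in all 6 libraries. Atp5l had 3 and 0 in BASC, 0 and 0 in AT2 cells, and 12 and 19 in Club cells; it was not called in AT2 against Club cells (limma adjusted p = 0.0541).

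The mitochondrially encoded genes moved in different directions within 1 chromosome. mt-Nd5, a proton-pumping subunit of complex I (chromosome M, 11742 to 13565, plus strand), had 46872 and 48278 in BASC, 52430 and 43703 in AT2 cells, and 63001 and 66104 in Club cells. It fell in BASC (log2 fold change -0.44 ± 0.11, limma adjusted p = 0.0478) and in AT2 (-0.43 ± 0.11, limma adjusted p = 0.0365), each against Club cells. mt-Nd4 (10167 to 11544, plus strand) had 22172 and 23012 in BASC, 23316 and 19808 in AT2 cells, and 28738 and 29089 in Club cells, and fell in AT2 (-0.43 ± 0.11, limma adjusted p = 0.0316). In BASC it was not called (-0.36 ± 0.11, limma adjusted p = 0.0804). mt-Co1 (5328 to 6872, plus strand) went the other way, with 36951 and 36133 in BASC, 49451 and 39814 in AT2 cells, and 34084 and 31829 in Club cells. It rose in AT2 against Club cells (0.43 ± 0.12, limma adjusted p = 0.0494) and was not called in BASC against Club cells (0.15 ± 0.12, limma adjusted p = 0.521). The mt-Co1 call was kept under 5 of 16 alternatives, over which its log2 fold change lay between 0.145 and 0.586. It was lost under each other scaling, with a pseudocount of 0.5, without a trend, with 2 populations in the fit, and without AT2 replicate 1 (0.27) or any single BASC or Club library. The calls of mt-Nd4 and mt-Nd5 in AT2 were lost without AT2 replicate 2, either BASC library or either Club library. They were also lost without a trend and with 2 populations in the fit. That of mt-Nd5 in BASC was lost when any single BASC or Club library was left out. It was also lost with a pseudocount of 0.5, with a filter of at least 50 in at least 2 samples, and without a trend.

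The remaining mitochondrial genes were not called. mt-Nd2 had 22788 and 23309 in BASC, 23768 and 18261 in AT2 cells, and 26947 and 28145 in Club cells, with Club cells highest (limma adjusted p = 0.0812 for AT2 against Club cells). mt-Nd6, read from the opposite strand to the others, had 9902 and 9425 in BASC, 12048 and 8196 in AT2 cells, and 12092 and 12413 in Club cells. mt-Nd1, the gene nearest to the ribosomal RNAs, had 26909 and 24103 in BASC, 31025 and 21790 in AT2 cells, and 24475 and 24068 in Club cells. mt-Cytb had 43272 and 40976 in BASC, 48220 and 40404 in AT2 cells, and 48048 and 48583 in Club cells.

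A ratio of 2 mitochondrial genes within a library is free of its scaling and of its total mitochondrial RNA. mt-Co1 over mt-Nd5 was 0.788 and 0.748 in BASC, 0.943 and 0.911 in AT2 cells, and 0.541 and 0.482 in Club cells. The 3 populations did not overlap, with BASC in the middle. mt-Co1 over mt-Nd4 gave the same order, with 1.67 and 1.57 in BASC, 2.12 and 2.01 in AT2 cells, and 1.19 and 1.09 in Club cells. Copies matched 31.3% of mt-Co1 and 63.6% of mt-Nd4, so both ratios are uncertain to the extent that reads were shared. The genes of the ratios were picked after the values were seen, so the ratios are a description. Such a ratio shows that the genes changed unequally, not which of them changed. The mitochondrial ribosomal RNAs, which lie outside the rule, were ordered likewise: mt-Rnr2 over mt-Rnr1 was 1.31 and 1.25 in BASC, 1.53 and 1.73 in AT2 cells, and 0.996 and 0.924 in Club cells. mt-Rnr2 rose in AT2 against Club cells (log2 fold change 0.57 ± 0.10, limma adjusted p = 0.00995). Whether the library preparation affected the ribosomal RNA values was not tested. The mitochondrial chromosome as a whole held between 9.76% and 11.1% of each library. Most of that was mt-Rnr1 and mt-Rnr2, with 489174 and 642219 in BASC replicate 1.

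**Figure D5:**
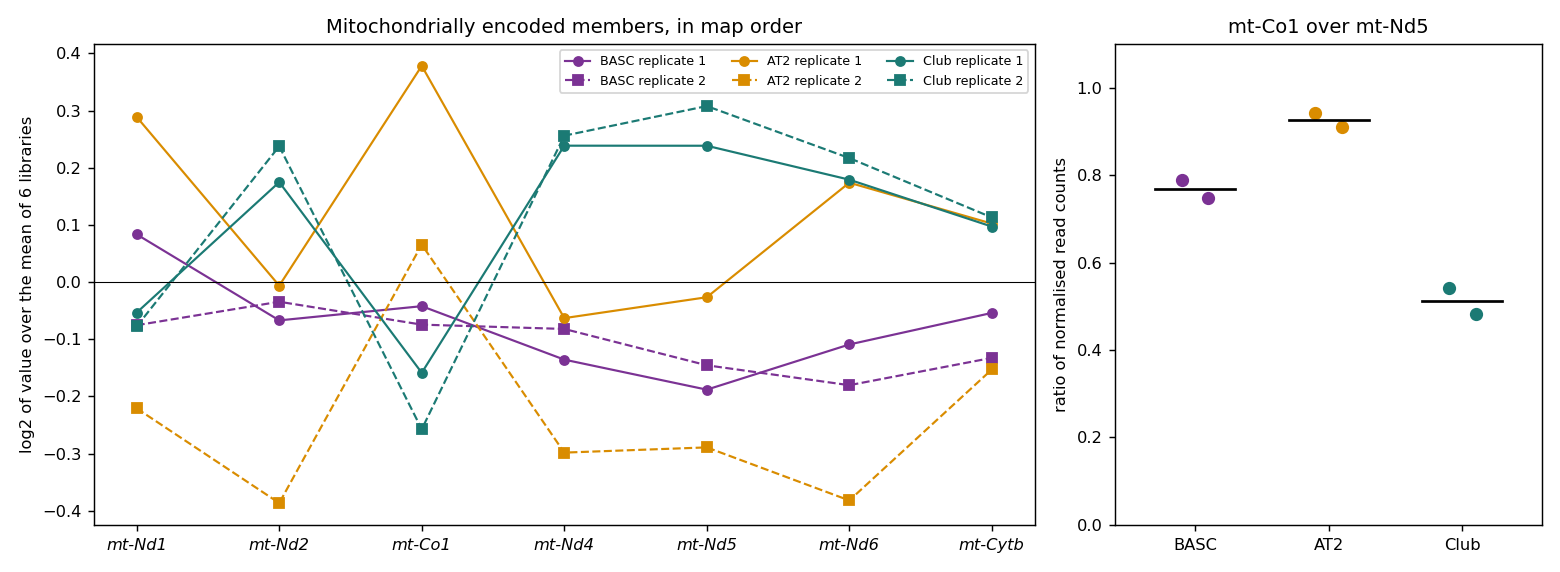
Left, log2 of each library's normalised read count over the mean of the 6 libraries for the 7 mitochondrial genes tested, in map order, with 1 line per library. Right, the ratio of mt-Co1 to mt-Nd5 per library (points) and its population mean (bars). AT2 replicate 1 lies above AT2 replicate 2 at every gene, and the ratio is highest in AT2 (0.943 and 0.911), lower in BASC and lowest in Club cells (0.541 and 0.482).

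Promoters were read for the nuclear genes because regulators of oxidative phosphorylation act there. RefSeq promoters of GRCm38.p6, 250 bases before to 50 after the start, were found by symbol for 73 of the 91 nuclear genes. Searched on both strands, the NRF1 motif, GCGC and TGCGC with any base between, stood in 26.0% of the 73, beside 10.3% of all 11425 promoters of that length. The ETS motif CCGGAAG, bound by GABPA, stood in 24.7% beside 17.8%, the YY1 motif AAGATGGCG in 11.0% beside 3.1%, and the CCAAT box in 45.2% beside 42.2%. At least 1 of the NRF1, ETS and YY1 motifs was found in 38 of the 73 (52.1%), beside 27.8% of all. The promoters of the called genes Ndufa1, Ndufa3, Ndufaf7, Uqcr10 and Uqcrfs1 held none of these 3, and those of Cox6a2 and Cox4i1 were not matched. The promoters printed are those of Ndufaf7 and Uqcr10, which were lowest in AT2 and in BASC, and of Cox6a1, which was not called and which holds matches to NRF1, ETS and CCAAT. Capitals mark the motif matches on either strand. Ndufaf7 lies at chr17:78936885-78937184 on the plus strand, Uqcr10 at chr11:4704295-4704594 on the minus strand and Cox6a1 at chr5:115348909-115349208 on the minus strand.
Ndufaf7: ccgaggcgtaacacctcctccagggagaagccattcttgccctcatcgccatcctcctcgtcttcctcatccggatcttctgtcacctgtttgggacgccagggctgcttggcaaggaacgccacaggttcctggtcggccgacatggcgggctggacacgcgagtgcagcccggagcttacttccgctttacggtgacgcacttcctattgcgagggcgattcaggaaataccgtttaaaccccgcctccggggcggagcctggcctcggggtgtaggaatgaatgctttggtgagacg
Uqcr10: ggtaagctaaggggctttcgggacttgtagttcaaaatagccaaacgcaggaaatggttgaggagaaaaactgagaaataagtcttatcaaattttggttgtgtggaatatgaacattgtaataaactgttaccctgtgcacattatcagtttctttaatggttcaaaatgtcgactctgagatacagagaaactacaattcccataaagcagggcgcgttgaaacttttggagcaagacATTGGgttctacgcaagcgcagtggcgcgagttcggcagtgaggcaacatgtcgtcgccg
Cox6a1: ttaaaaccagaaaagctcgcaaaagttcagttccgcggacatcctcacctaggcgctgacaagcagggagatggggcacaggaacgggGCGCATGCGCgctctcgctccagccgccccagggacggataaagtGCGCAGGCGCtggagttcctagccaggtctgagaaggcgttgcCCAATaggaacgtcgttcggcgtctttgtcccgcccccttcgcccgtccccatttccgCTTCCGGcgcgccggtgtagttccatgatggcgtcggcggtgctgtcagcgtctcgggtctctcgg
In Cox6a1 the capitals are, in order, 2 NRF1 matches, a CCAAT box and an ETS match on the other strand; Uqcr10 holds a CCAAT box on the other strand, and Ndufaf7 holds none of the 4 motifs. A match is a run of letters only.

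Genes that work beside the respiratory chain were read from the same fit. None of their 8 lists had a call between BASC and AT2, where 0.632% of all genes were called. The counts below stand beside 5.77% of all genes called higher and 5.42% lower in BASC against Club cells. In AT2 against Club cells these shares were 8.42% and 9.71%. Whether any list departs from them was not tested. Of 12 regulators of mitochondrial biogenesis, Gabpb1, the partner of GABPA, rose against Club cells in BASC and in AT2, with 800 and 720 in BASC, 776 and 495 in AT2 cells, and 198 and 192 in Club cells (limma adjusted p = 0.00441 in BASC and 0.00545 in AT2). Esrrg, a nuclear receptor that activates oxidative genes, fell in both, with 1 and 0 in BASC, 0 and 1 in AT2 cells, and 179 and 130 in Club cells (limma adjusted p = 0.00968 in BASC and 0.00602 in AT2). Pprc1, a relative of PGC-1, fell in AT2, with 413 and 376 in BASC, 256 and 188 in AT2 cells, and 571 and 490 in Club cells (limma adjusted p = 0.0156). The other regulators, Nrf1, Gabpa, Esrra, Yy1 and Tfam among them, were not called.

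Of 17 genes of mitochondrial DNA replication and transcription, 2 rose in both comparisons with Club cells, Polg and Polg2, the catalytic and accessory subunits of the mitochondrial DNA polymerase. Polg had 1238 and 951 in BASC, 1456 and 1165 in AT2 cells, and 600 and 573 in Club cells, and Polg2 had 883 and 937 in BASC, 926 and 723 in AT2 cells, and 406 and 413 in Club cells. The BASC and AT2 values of both genes lay above both Club values (limma adjusted p between 0.00772 and 0.0317). Of 21 genes of the citric acid cycle and pyruvate entry, 2 fell in AT2 against Club cells, near the 9.71% of all genes. Idh2, the mitochondrial isocitrate dehydrogenase that makes NADPH, had 3268 and 3819 in BASC, 1430 and 2180 in AT2 cells, and 4231 and 4396 in Club cells (limma adjusted p = 0.00518). Pcx, pyruvate carboxylase, had 3018 and 2376 in BASC, 2260 and 1520 in AT2 cells, and 3788 and 4263 in Club cells (limma adjusted p = 0.0117).

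The other lists had at most 1 call per direction. Of 34 tested assembly factors outside the rule, Cox14 fell in AT2 against Club cells, with 137 and 168 in BASC, 100 and 68 in AT2 cells, and 245 and 287 in Club cells (limma adjusted p = 0.0261). Of 16 genes of fatty acid oxidation, Decr1 rose in BASC against Club cells (BASC values of 518 and 545, against 289 and 257 in Club cells; limma adjusted p = 0.0430) and Etfa fell in AT2 against Club cells (292 and 365 in AT2 cells, against 912 and 709 in Club cells; limma adjusted p = 0.0398). Of 10 carriers tested, Slc25a20, which brings acylcarnitine into mitochondria, rose in AT2 against Club cells (302 and 619 in AT2 cells, against 129 and 157 in Club cells; limma adjusted p = 0.0416). Of 77 mitochondrial ribosome proteins, Mrps9 rose in BASC (BASC values of 754 and 1050, against 213 and 313 in Club cells; limma adjusted p = 0.0110) and Mrpl39 fell in AT2 (186 and 108 in AT2 cells, against 520 and 444 in Club cells; limma adjusted p = 0.0121). None of 21 import and outer membrane genes, often read as a gauge of mitochondrial mass, was called by limma. Their median log2 fold change was -0.21 in BASC and -0.11 in AT2 against Club cells, with 71.4% negative in each. The mitochondrial ribosome proteins had medians of -0.25 and -0.26, with 68.8% and 64.9% negative. Over all genes both medians were -0.10, with 54.4% and 54.2% negative. Whether the module differs from these lists was not tested. At an unadjusted p under 0.05, 1 of the 21 import and outer membrane genes was higher and 0 were lower in BASC when set against AT2 cells. Set against Club cells, BASC had 0 in either direction, beside 11.3% of all genes higher and 13.3% lower. In AT2 against Club cells 1 was higher and 3 were lower, beside 13.9% and 16.6% of all genes.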

How the data were processed

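RNA was sequenced from 2 samples each of BASC, AT2 and Club cells. Per the labels' protocols, libraries were made from 100 pg of RNA with the SMARTer Stranded Pico kit. The tools named in the submitters' processing notes are FastQC, STAR 2.4.0a and featureCounts 1.4.5-p1 (Subread), with mm10 (GRCm38) as the build. Not given in the sources used here: normalisation method, strand setting, annotation release, handling of multi-mapping reads. The deposited signal values are whole numbers that the file marks as normalised. From the regular spacing of low values they were taken as read counts scaled by 1 factor per sample and rounded, an assumption about what the authors did. Whole reads could not be recovered exactly, so no count model was run.

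On the scale log2(value + 1), a gene entered when 2 or more samples reached 10 (17721 genes, 13369 protein coding), and the 6 samples were fitted together by population in limma 3.58.1 (R 4.3.3, with a trend; residual degrees of freedom 3, prior 4.2). P-values are 2-sided, with Benjamini-Hochberg adjustment over all genes tested and calls at an adjusted p under 0.05. The fit was tested on simulated data with changes larger than most in the module, so that test does not bear on small differences. Exon lengths, the union of all annotated exons of a gene, and copies came from GENCODE mouse release 21. Copies were same-strand BLAST 2.17.0 alignments to transcripts of other genes, at 98% identity or more over at least 50 bases.

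Named genes are all called members, all mitochondrial members, the member with the highest value of each complex, the isoform families and the called genes of the other lists, except 1 gene that is not reported here. Any other named gene was chosen after its values were seen. The members and lists were chosen with earlier results of these data known. Alternatives were 2 pseudocounts, 2 filters, 3 scalings, no trend, 2 populations at a time, the replicate number as a block, each library left out, structural subunits alone and, chosen after seeing the data, members with few copies.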

Additional observations from a re-analysis of the deposited data

How the results depend on the processing

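Across 18 alternatives, no called result changed direction. Between BASC and AT2 no gene of the module was called under any of them. Without a trend in the fit, the calls numbered 2 for BASC against Club cells (5 with it) and 5 for AT2 against Club cells (9 with it); the cause was not tested. Leaving out 1 library at a time gave 1 to 6 calls for BASC against Club cells, and 3 to 8 for AT2 against Club cells; the lone sample of a population was then assumed to vary like the others, and fewer samples entered the fit. Over the same runs, the median log2 fold change of BASC against AT2 lay between -0.178 and -0.009 for nuclear and between -0.196 and 0.189 for mitochondrial genes. In AT2 against Club cells it lay between -0.283 and -0.137 for nuclear and between -0.546 and -0.024 for mitochondrial genes. The difference in the log2 ratio of mitochondrial to nuclear sums lay between -0.223 and 0.22 for BASC against AT2 and between -0.193 and 0.249 for AT2 against Club cells, with the AT2 replicates at both ends. Equal totals over nuclear protein-coding genes gave a nuclear median of -0.399 in AT2 against Club cells, where the median of all genes moved by -0.12. Quantile normalization moved it by 0.103 in BASC and 0.134 in AT2 against Club cells. Relative to all genes, the module's median lay at -0.178 in both Club comparisons, between -0.251 and -0.178 in BASC and between -0.262 and -0.178 in AT2 under the 3 other scalings and the authors'. Cox6a2 and Ndufaf7 in AT2 against Club cells were called under all 16 alternatives run for single genes.

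With the replicate number as a block, 0, 5 and 8 genes were called in BASC against AT2, BASC against Club and AT2 against Club cells. The medians could not move, since every population holds 1 sample of each number. Across all genes tested, same-numbered samples did not deviate together (Pearson's r 0.006, 0.008 and 0.012). Such a correlation cannot show whether they share an animal, a pool or a day. Genes with few reads had wide errors, such as Cox4i2 with an SE of 1.43 on the log2 scale.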
